A study of Homo sapiens with 6 samples.

Results

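Long intergenic and antisense RNA genes were described in F36P cells, an established human erythroleukaemia cell line, with and without added ERG, an ETS-family transcription factor. They were taken by name, as genes called LINC with a number and genes whose name ends in -AS1, and kept where at least 1 CPM (count scaled to library size) was reached in at least 3 of the 6 libraries. This gave 380 genes, 137 LINC and 243 -AS1, out of 433 such rows (155 and 278) in a table of 14821 genes, of which 14203 met the same level and were tested. The submitters asked by which route ERG holds back the maturation of red cells. In the ERG group (3 libraries) the cells carried the retroviral plasmid MSCV-PIG-AM-ERG, and in the vector group (3 libraries, genotype given as WT) they carried MSCV-PIG. Both groups had thus been transduced, and both were selected with 1 µg/ml puromycin for 4 days before polyadenylated RNA was sequenced in bulk. The labels call the replicates biological without naming separate cultures or transductions, so the p-values rest on the spread among these libraries alone.

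A LINC name is given to a gene, mostly between protein-coding genes, whose RNA encodes no known protein. An -AS1 gene is named after a gene that it overlaps or faces on the opposite strand, its partner. Some antisense RNAs share a start region with the partner and are transcribed away from it, and others run through its exons or introns. Most such RNAs are present at a low level and vary strongly between cell types, and for most of them no function is known.

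The column totals came to 12421407, 14169691 and 14803031 for ERG replicates 1, 2 and 3, against 11546541, 13615797 and 10257141 in vector replicates 1, 2 and 3. ERG itself was at 101 ± 3.46 CPM in ERG libraries, against 21.7 ± 6.76 CPM in vector libraries (SD, n = 3 each), and in a bulk count table added and native ERG RNA cannot be told apart. The libraries also resembled each other across the groups, as earlier results on these data had shown. Over the 380 genes, vector replicate 1 correlated with ERG replicates 1 and 2 at r = 0.904 and 0.900, and with vector replicates 2 and 3 at 0.853 and 0.839. ERG replicate 3 correlated with ERG replicates 1 and 2 at 0.884 and 0.886, and with vector replicates 2 and 3 at 0.905 and 0.918. ERG replicates 1, 2 and vector replicate 1 are called library set A. ERG replicate 3 and vector replicates 2 and 3 form library set B. These are not groups of the study and enter only as an added term. ERG replicates 1 and 2 differed by a chi-square of 2.19 per degree of freedom, beyond sampling noise, against 20.5 to 85.8 for every other pair, and were counted as 2 libraries. Summed CPM of 8 erythroid markers was 3179 to 5478 in ERG libraries, against 9234 to 14850 in vector libraries. That of 5 megakaryocyte markers was 1291 to 2463 against 516.5 to 1140, and that of 4 mast cell markers 1749 to 1885 against 550.4 to 871.6. PF4, CD3D, CD3E, MS4A1, CD14, COL1A2, COL3A1 and KRT5 had no row in the table used here. The part of these marker levels in the results that follow was not tested, and in bulk samples fewer cells of a type and less RNA per cell cannot be told apart.

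With ERG, LINC02829 rose and no other of the 380 genes passed the test. That is 1 gene (0.263%) higher and 0 lower at an edgeR adjusted p under 0.05, while 2.2% of all tested genes passed that threshold (1.47% higher, 0.732% lower). Leaving the threshold aside, most log2 fold changes (ERG over vector) were above 0: 269 of the 380 (70.8%) were positive, against 48.9% of all tested genes. Their median was 0.28 (quartiles -0.08 and 0.62), and it was 0.33 for LINC and 0.27 for -AS1 genes, against -0.01 over all tested genes. Without 1 library the median ran from 0.17 (without vector replicate 3, 244 positive) to 0.46 (without vector replicate 1, 300 positive). It was 0.43 without ERG replicate 3 and 0.13 with a term for the library set (234 positive). The level required for entry bears on these counts, since 17 of the 380 reached 1 CPM in all ERG and no vector libraries, and 0 the reverse. Among the 237 that reached 1 CPM in all 6 libraries, 163 (68.8%) were positive with a median of 0.20, against 46.9% and -0.03 over the 12621 genes of that kind. A change of at least 1 on the log2 scale was fitted for 46 genes upwards and 3 downwards, 12.9% of the 380, against 6.79% of all tested genes. At an unadjusted p under 0.05, 44 genes passed (42 higher, 2 lower; 11.6%), where 15.9% of all tested genes did. Without 1 library this count was 25, 24 and 80 (ERG replicate 1, 2 or 3 left out) and 85, 36 and 36 (vector replicate 1, 2 or 3 left out). In the same order, 1278, 1256 and 3578 of all 14203 tested genes passed without an ERG library. Without a vector library 3322, 1655 and 1820 did, so the count moved with that of all tested genes.

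**Figure D1:**
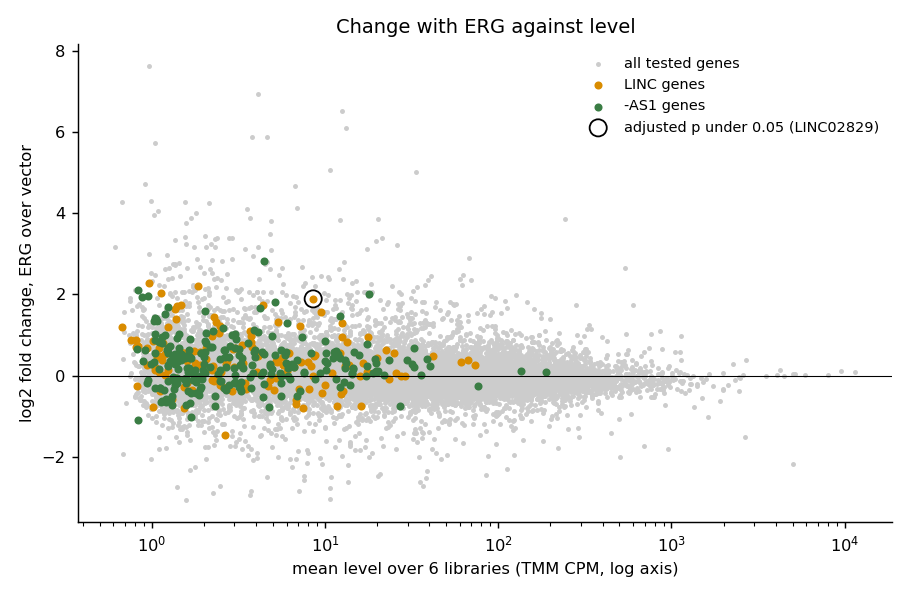
Log2 fold change of ERG over vector (vertical axis) against the mean TMM-normalised CPM over the 6 libraries (log axis) for all 14203 tested genes (grey), LINC genes (orange) and -AS1 genes (green); the ring marks LINC02829, the gene with an adjusted p under 0.05. Most of the coloured points lie at the low end of the level axis, where 307 of 380 are under 10 CPM, and more of them lie above the zero line (269) than below it (111).

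The genes were low in level, and their fold changes had wide errors. The median over the 380 genes of the mean CPM was 2.71 (quartiles 1.47 and 6.88), against 27.5 over all tested genes. Below 10 CPM stood 307 genes (80.8%), 6 reached 50 CPM and 2 reached 100 CPM. Together they took 0.328, 0.329 and 0.247% of the counts in ERG replicates 1, 2 and 3, against 0.281, 0.226 and 0.228% in vector replicates 1, 2 and 3. The Wilson 95% intervals were 0.325 to 0.331, 0.326 to 0.332 and 0.245 to 0.250% for ERG, and 0.278 to 0.284, 0.223 to 0.228 and 0.225 to 0.231% for vector, and cover counting error only. ERG replicate 3 thus lay below vector replicate 1, and the groups overlapped. The median SE of the log2 fold change was 0.40 for the 380 genes, against 0.23 over all tested genes. Of the 285 genes under 6.88 CPM none passed, while 61 of the 3632 tested genes under that level did (1.68%), with median SEs of 0.44 and 0.42.

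The levels also followed the library sets. ERG replicate 3 was the lowest of the ERG libraries in 264 of the 380 genes (69.5%), against 44.3% of all tested genes. Vector replicate 1 was the highest of the vector libraries in 235 (61.8%), against 42.0% of all tested genes. Within set A the median log2 difference of ERG minus vector was 0.17, and within set B it was 0.13, against 0.00 and 0.02 over all tested genes. When the model held a set term, 20 genes were higher and 4 lower (5.26% and 1.05%), where 7.2% of all tested genes were higher and 5.96% lower (13.2% in all). As the sets were defined on these libraries, p-values with that term may be too small.

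LINC02829 lies on chromosome 6 from 29497475 to 29510564 (RefSeq, GRCh38.p14). It stood at 13.6, 12.8 and 13.99 CPM in ERG replicates 1, 2 and 3, against 5.28, 2.21 and 3.42 CPM in vector replicates 1, 2 and 3. The ERG libraries lay close together, well above the highest vector library. These levels rested on 174, 186 and 206 counts with ERG, against 60, 29 and 35 with vector. The mean was 3.70-fold higher, 13.5 ± 0.633 against 3.64 ± 1.55 CPM (SD, n = 3 each), with a log2 fold change of 1.89 (SE 0.32, 95% interval 1.14 to 2.64, edgeR adjusted p = 0.034). In set A the log2 difference was 1.29, and in set B it was 2.28. The call was lost without ERG replicate 1, 2 or 3 (edgeR adjusted p = 0.152, 0.146 and 0.0538) and without vector replicate 2 or 3 (0.0872 and 0.121), with log2 fold changes between 1.62 and 2.26 over all such fits. With ERG replicates 1 and 2 summed to 1 library it was also lost (adjusted p = 0.150). Few or no genes passed in most of these fits. Of all 14203 tested genes, 0 were called without ERG replicate 1 or 2 and 441 without ERG replicate 3. Without vector replicate 2 or 3, 19 and 51 were called, and with the sum 0. In the fits other than that without ERG replicate 3, the loss was thus not particular to LINC02829. Without ERG replicate 3, 267 of the 313 genes called in the main fit were kept, but LINC02829 was not. Of the 380 genes, 4 were called in that fit, LINC00861, LINC01218, STXBP5-AS1 and TTLL10-AS1.

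The nearest tested protein-coding gene, MAS1L, lies 9519 bases from LINC02829 and encodes a G protein-coupled receptor related to the MAS receptor. MAS1L was at 5.55, 5.76 and 3.53 CPM in ERG libraries, against 1.14, 0.914 and 1.37 CPM in vector libraries. All ERG libraries were above all vector libraries, by 4.32-fold in the fit (log2 fold change 2.11, SE 0.35, edgeR adjusted p = 0.0295). This call too was lost without ERG replicate 1 or 2 or vector replicate 2 or 3 (edgeR adjusted p = 0.0874 to 0.162). In these fits 0 to 51 of all tested genes were called.

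Below LINC02829 in the ranking stood genes with larger fitted changes and wider spreads, named after their values were seen. STXBP5-AS1 overlaps, near its start, STXBP5, the gene of tomosyn, a protein that inhibits SNARE-mediated secretion. It was at 12.1, 7.95 and 3.19 CPM in ERG libraries, against 1.67, 1.07 and 0.489 CPM in vector libraries. The groups did not overlap, but the ERG libraries ran from 3.19 to 12.1 CPM, and the largest fitted change of the 380 (log2 2.83, SE 0.60) did not pass (edgeR adjusted p = 0.065). LINC00539, on chromosome 13 from 21303512 to 21344859, was at 3.60, 3.43 and 2.10 CPM in ERG libraries, against 0.792, 0.305 and 0.881 CPM in vector libraries (log2 2.21, SE 0.47, edgeR adjusted p = 0.0649). LINC02476, on chromosome 7, was at 2.35, 1.37 and 1.09 CPM in ERG libraries, against 0.528, 0.152 and 0.294 CPM in vector libraries (log2 2.28, adjusted p = 0.099). For both, every ERG library was above every vector library, at levels of a few CPM or less. Both reached 1 CPM in the ERG libraries alone, so their place among the 380 required this separation, and it is no added support.

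LINC01218, on chromosome 4 from 100811419 to 100880122, was at 22.1, 19.95 and 11.8 CPM in ERG libraries, against 9.42, 7.16 and 5.28 CPM in vector libraries. The groups did not overlap (log2 1.29, SE 0.31, edgeR adjusted p = 0.0916). LINC00963, on chromosome 9, was at 19, 16.6 and 6.93 CPM in ERG libraries, against 7.92, 3.28 and 3.23 CPM in vector libraries. Here ERG replicate 3 lay below vector replicate 1, and the log2 fold change of 1.56 did not pass (edgeR adjusted p = 0.177). Across the 380 genes, 50 had all ERG libraries above all vector libraries (13.2%) and 9 had all below (2.37%). Over all tested genes these shares were 12.3% and 9.54% (21.9% in all), so the share above was near that of all genes, and the share below was smaller. Among the 237 genes at 1 CPM in all libraries the shares were 10.97% and 2.53%, against 11.7% and 10.3% of all genes of that kind.

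**Figure D2:**
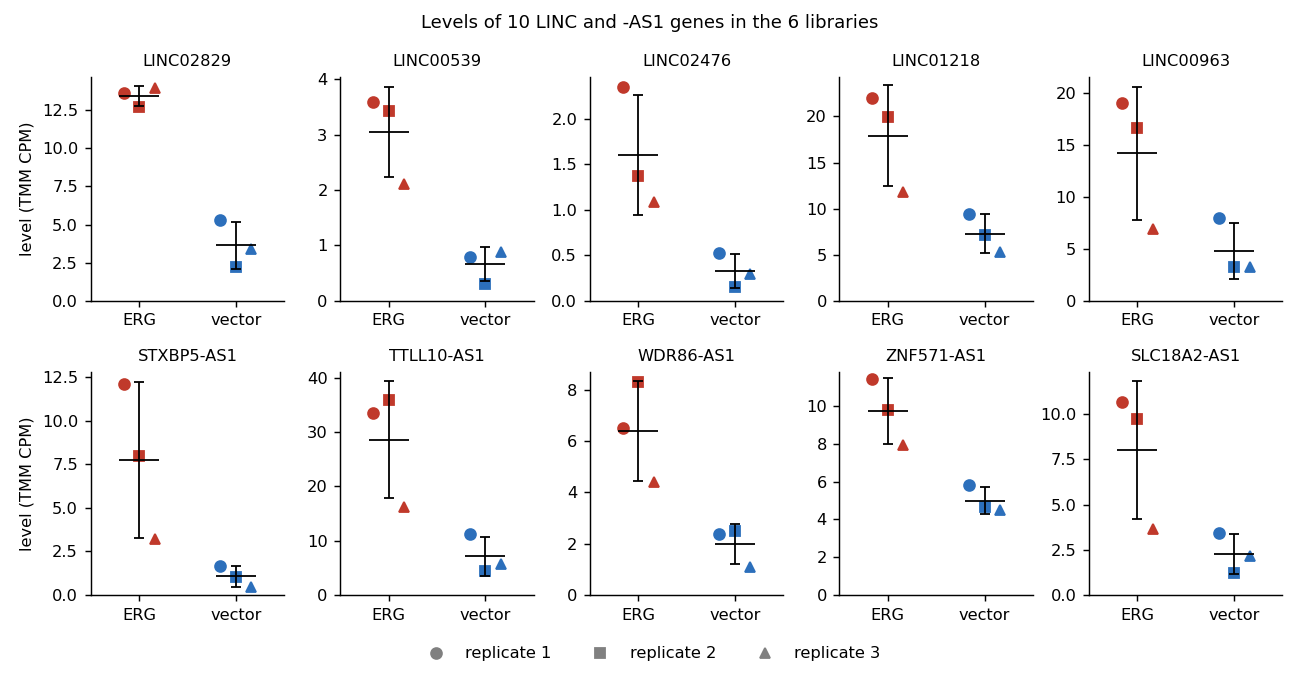
TMM-normalised CPM (vertical axes, each starting at 0) of 10 LINC and -AS1 genes in the 3 ERG libraries (left, red) and the 3 vector libraries (right, blue), with the mean and SD in black and a marker shape for each replicate number. These are the 10 genes that pass in DESeq2, with a replicate block and with the library set term alike. Of all tested genes, 7.08, 6.37 and 13.2% passed in these 3 fits. They are refits of the same libraries, so their agreement is no added support, and only LINC02829 passed in the main fit. LINC00539 and LINC02476 reached 1 CPM in the ERG libraries alone. In LINC02829 the ERG libraries sit at 12.8 to 13.99 CPM and the vector libraries at 2.21 to 5.28 CPM. In STXBP5-AS1 the ERG libraries run from 3.19 to 12.1 CPM.

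None of the 380 genes fell under the main test. The lowest fitted change, named after its value was seen, was that of LINC00871 on chromosome 14. It was at 1.41, 1.30 and 1.49 CPM in ERG libraries, against 2.64, 6.63 and 2.35 CPM in vector libraries, all ERG libraries being below all vector libraries (log2 -1.47, SE 0.47, edgeR adjusted p = 0.178). The 4 genes lower with the set term were all LINC genes, and in each of them the groups overlapped across the sets. LINC01569 was at 5.32, 7.40 and 3.53 CPM in ERG libraries, against 13.2, 9.21 and 5.97 CPM in vector libraries (adjusted p = 0.359 in the main fit, 0.020 with the set term). LINC01133 was at 18.1, 14.2 and 3.73 CPM in ERG libraries, against 39.4, 5.48 and 15.9 CPM in vector libraries (0.660 and 0.025). The other two, LINC02573 and LINC01215, had log2 fold changes of -0.75 and -0.45 in the main fit (adjusted p = 0.624 and 0.533).

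**Figure D3:**
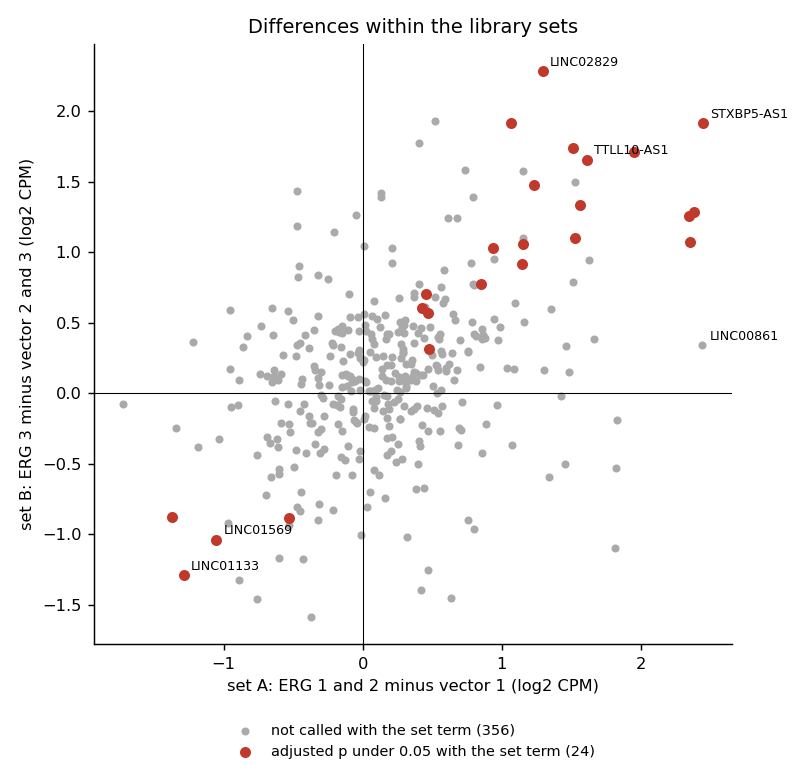
Differences in log2 CPM (prior count 2) of the 380 genes within library set A (horizontal axis, ERG replicates 1 and 2 minus vector replicate 1) and within set B (vertical axis, ERG replicate 3 minus vector replicates 2 and 3). Red points are the 24 genes with an edgeR adjusted p under 0.05 with the set term, 20 of them above 0 and 4 below 0 on both axes, and the differences have the same sign in both sets for 239 of the 380 genes; the sets were defined on these libraries.

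Of the most abundant genes none passed the test. OIP5-AS1, also known as Cyrano, which in mice is part of the turnover of the microRNA miR-7, was the highest at 194 ± 10.2 CPM in ERG libraries, against 182 ± 20.1 CPM in vector libraries (log2 0.09, SE 0.14, edgeR adjusted p = 0.772). FGD5-AS1 followed at 142 ± 3.77 against 130 ± 14.3 CPM, and TP73-AS1, which lies tail to tail with the gene of the p53 relative p73, at 70.2 ± 8.04 against 83.6 ± 14.02 CPM. OTUD6B-AS1, PSMA3-AS1 and AFAP1-AS1 averaged 43.5, 44.4 and 35.6 CPM in ERG libraries, against 37.2, 33.5 and 35.6 CPM in vector libraries. Among LINC genes, LINC01961 was at 79.8 ± 7.07 against 66.9 ± 6.82 CPM, LINC01000 at 75.9 ± 16.7 against 57.8 ± 8.31 CPM and LINC01694 at 68.2 ± 2.77 against 54.2 ± 5.62 CPM. LINC00863 was at 49.0 ± 3.72 against 35.0 ± 6.63 CPM, LINC01128 at 28.8 ± 1.64 against 29.1 ± 3.04 CPM and LINC00839 at 27.5 ± 1.47 against 27.6 ± 5.87 CPM. None of these 12 passed (edgeR adjusted p = 0.224 to 0.998). In LINC01694 and LINC00863 the ERG libraries were all above the vector libraries. With the set term the edgeR adjusted p was 0.0213 for LINC01694 (log2 0.40) and 0.0795 for LINC00863 (log2 0.45). Per kb of exon length in GENCODE release 29, known for 292 of the 380 genes, LINC01961 led with 98.4 CPM per kb. It was followed by LINC00674 (30.8), FGD5-AS1 (26.5), LINC01218 (26.2) and LINC02506 (17.9 CPM per kb), all as levels averaged over the 6 libraries.

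None of the 243 -AS1 genes passed, while 5 of the 223 partners that were tested did, 4 higher and 1 lower (2.24%, against 2.54% of the protein-coding genes tested). For the other 20 the partner had no row in the table used here. The 5 partners were TTLL10, DENND3, SLC25A21, SLC18A2 and GATA2, and each overlaps its antisense gene in RefSeq position. The sources used here do not say whether strand was kept, so where an antisense gene and its partner overlap, their reads cannot be told apart.

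TTLL10, named for a family whose enzymes modify tubulin with amino acid chains, was at 36.1, 36.3 and 18.1 CPM in ERG libraries, against 8.54, 6.02 and 7.34 CPM in vector libraries (log2 2.05, SE 0.31, edgeR adjusted p = 0.024). TTLL10-AS1 (chromosome 1, 1173056 to 1179555) was at 33.6, 35.9 and 16.2 CPM in ERG libraries, against 11.3, 4.49 and 5.67 CPM in vector libraries. The 2 genes thus had similar CPM in each library and the same pattern over the libraries, with no overlap between the groups, and TTLL10-AS1 narrowly missed the threshold (log2 2.00, SE 0.43, adjusted p = 0.065). They share 679 exon bases in GENCODE release 29.

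SLC18A2, the vesicular monoamine transporter VMAT2 of platelets, mast cells and neurons, was at 75.9, 83.4 and 91.3 CPM in ERG libraries, against 27.1, 31.6 and 37.8 CPM in vector libraries (log2 1.38, SE 0.16, edgeR adjusted p = 0.0124). SLC18A2-AS1 (chromosome 10, 117238765 to 117241997) was at 10.6, 9.74 and 3.67 CPM in ERG libraries, against 3.43, 1.22 and 2.15 CPM in vector libraries. It was higher in every ERG library than in any vector library, but ERG replicate 3 was close to vector replicate 1, and it did not pass (log2 1.82, SE 0.52, adjusted p = 0.137). ERG replicate 3 was the lowest ERG library for SLC18A2-AS1 and the highest for SLC18A2.

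GATA2, a transcription factor of blood progenitors and mast cells, was at 1102, 1081 and 1348 CPM in ERG libraries, against 437, 559 and 650 CPM in vector libraries (log2 1.10, SE 0.20, edgeR adjusted p = 0.0416). GATA2-AS1 (chromosome 3, 128489203 to 128503207) was at 43.4, 44.4 and 32.1 CPM in ERG libraries, against 32.7, 22.01 and 20.2 CPM in vector libraries. ERG replicate 3 and vector replicate 1 overlapped by a narrow margin, and the log2 fold change of 0.68 (SE 0.23) did not pass (adjusted p = 0.203; 0.0149 with the set term). The spans of these genes overlap by 3999 bases, with 0 shared exon bases in GENCODE release 29.

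SLC25A21, a mitochondrial carrier of oxodicarboxylates, was the partner that fell, at 1.49, 1.58 and 2.04 CPM in ERG libraries, against 4.40, 6.40 and 4.89 CPM in vector libraries (log2 -1.62, SE 0.30, edgeR adjusted p = 0.0433). SLC25A21-AS1 was at 1.96, 1.10 and 0.543 CPM in ERG libraries, against 2.29, 1.30 and 0.294 CPM in vector libraries. Its groups overlapped fully, with a log2 fold change of -0.13 and an SE of 0.72 (adjusted p = 0.942). DENND3, an exchange factor for the small GTPase Rab12, was at 82.5, 83.4 and 38.8 CPM in ERG libraries, against 26.2, 16.2 and 15.95 CPM in vector libraries (log2 1.81, adjusted p = 0.0442). DENND3-AS1 was at 4.54, 3.29 and 1.43 CPM in ERG libraries, against 2.38, 0.762 and 1.17 CPM in vector libraries, with overlapping groups (log2 1.10, SE 0.57, adjusted p = 0.400). The calls of the 5 partners were lost in some of the fits that left out 1 library. Over these fits 0 to 6 partners were called, and 0 to 441 of all tested genes.

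Over the 223 pairs, the antisense gene and its partner had the same sign in 149 (66.8%), both above 0 in 105 and both below 0 in 44. In 52 pairs the antisense gene was above and the partner below 0, and in 22 pairs the reverse. The median log2 fold change was 0.27 for these antisense genes and 0.09 for their partners. Across pairs, which share their libraries and for overlapping genes may share reads, the log2 fold changes correlated at Pearson's r = 0.43 (Spearman's rho 0.41), given as a description. Pearson's r was 0.42 (rho 0.37) in 170 pairs with overlapping RefSeq spans and 0.44 (rho 0.50) in 37 divergent pairs whose RefSeq spans do not overlap. In 13 pairs without strand or position it was 0.64 (rho 0.68), and 3 pairs were convergent. Among pairs with both genes in GENCODE release 29, it was 0.43 where exon bases were shared there (128 pairs) and 0.44 where none were (32 pairs). In 93 pairs with starts within 1000 bases on opposite strands it was 0.44, with the same sign in 65 (69.9%). The antisense gene was at a median of 6.41% of the partner's CPM, not corrected for length, and above it in 21 pairs, among them TP73-AS1 and AFAP1-AS1.

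**Figure D4:**
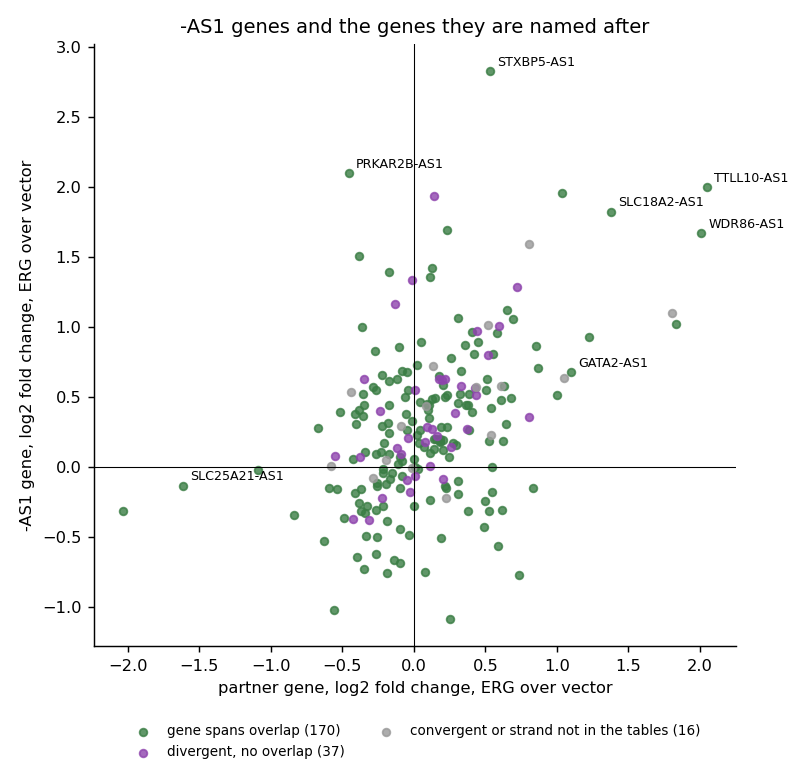
Log2 fold change of ERG over vector for 223 -AS1 genes (vertical axis) and for the genes they are named after (horizontal axis), coloured by the arrangement of the pair. Both values are above 0 in 105 pairs and below 0 in 44; TTLL10-AS1 and SLC18A2-AS1 lie at the upper right with their partners, while STXBP5-AS1 lies high above a partner at 0.53.

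In 4 pairs the 95% intervals of the log2 fold changes did not overlap, and in each the antisense gene had the larger value. The pairs, named after their values were seen, were those of STXBP5-AS1, PRKAR2B-AS1, CEP250-AS1 and DCTN1-AS1. STXBP5 was at 298, 304 and 275 CPM in ERG libraries, against 182, 193 and 230 CPM in vector libraries (log2 0.53, SE 0.14, edgeR adjusted p = 0.116), while STXBP5-AS1 had a log2 fold change of 2.83 at 1.79% of the level. The 2 genes start 197 bases apart on opposite strands, and their spans overlap there, so their reads may not be told apart. PRKAR2B-AS1, at the level required for entry, was at 1.72, 1.37 and 1.02 CPM in ERG libraries, against 0.176, 0.533 and 0.196 CPM in vector libraries (log2 2.10, SE 0.54, adjusted p = 0.106). PRKAR2B, a regulatory subunit of protein kinase A, was at 118.5 ± 16.01 CPM in ERG libraries, against 162.6 ± 25.95 CPM in vector libraries (log2 -0.46, adjusted p = 0.248). PRKAR2B-AS1, like CEP250-AS1 and DCTN1-AS1, entered through the ERG libraries alone, so its higher level with ERG was required for entry and supports nothing further. WDR86-AS1 and WDR86, also named after their values were seen, had similar fold changes. The antisense gene was at 6.49, 8.30 and 4.41 CPM in ERG libraries against 2.38, 2.51 and 1.08 CPM in vector libraries (log2 1.67, edgeR adjusted p = 0.0916), and the partner had a log2 fold change of 2.01 (adjusted p = 0.0863).

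For LINC genes, which have no partner in the name, the nearest tested protein-coding gene was taken, at a median distance of 30629 bases for 131 genes with a RefSeq position. The 131 pairs held 125 different neighbours, of which 5 were called, all higher (4%, against 2.54% of protein-coding genes tested): MAS1L, GOLGA8N, KLRG1, TRIB1 and GP5. In fits without 1 library, 0 to 5 neighbours were called, and 0 to 441 of all tested genes. MAS1L beside LINC02829 was the single pair in which both genes passed. GP5, a subunit of the platelet receptor for von Willebrand factor, was at 6.95 ± 0.393 CPM in ERG libraries, against 0.467 ± 0.359 CPM in vector libraries (log2 3.88, edgeR adjusted p = 0.0146). GP5 reached 1 CPM in the ERG libraries alone, so a higher level with ERG was required for it to be tested. LINC02048, which lies 116662 bases away, had a log2 fold change of 0.88 with an SE of 0.85. KLRG1, an inhibitory receptor of lymphocytes that binds cadherins, was at 21.99 ± 1.10 against 6.57 ± 2.33 CPM (log2 1.75, adjusted p = 0.0295). LINC00987, 24503 bases from it, was at 1.96, 2.81 and 1.63 CPM in ERG libraries, against 0.968, 0.229 and 0.783 CPM in vector libraries (log2 1.70, SE 0.53, adjusted p = 0.174). LINC00987 too reached 1 CPM in the ERG libraries alone, so this separation was required for entry. TRIB1, a pseudokinase that promotes the breakdown of the factor C/EBPα, lies 484120 bases from LINC00861, with log2 fold changes of 1.23 for TRIB1 (adjusted p = 0.0422) and 1.74 for LINC00861 (adjusted p = 0.152). LINC00861 differed by 2.44 within set A and by 0.34 within set B. GOLGA8N, of a family of near-identical golgin genes whose counts are uncertain, had a log2 fold change of 0.87 beside 0.38 for LINC02256.

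Signs were shared in 77 of the 131 pairs (58.8%; Pearson's r = 0.27 across pairs, as a description). Among 34 pairs within 10 kb they were shared in 24 (70.6%; r = 0.57), and without LINC02829 in 23 of 33 (r = 0.35). In 5 of the 34 pairs the LINC gene and its neighbour overlap, so their reads may not be told apart, and all 5 shared the sign, against 19 of the other 29. Among 38 pairs over 100 kb apart they were shared in 21 (55.3%; r = 0.24). The correlation within 10 kb rested in good part on LINC02829 and MAS1L.

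Other long noncoding genes were looked at for comparison. Of 48 tested genes of a list with names of their own (such as NEAT1, NORAD and the SNHG snoRNA hosts) none passed, 19 were positive and the median log2 fold change was -0.07. NORAD, which binds Pumilio proteins, was at 410 ± 57.7 CPM in ERG libraries, against 330 ± 43.7 CPM in vector libraries, and NEAT1, the scaffold of paraspeckles, at 313 ± 103 against 233 ± 71.1 CPM. Of 108 tested genes named -AS2, -AS3, -DT, -IT1 or -OT1, 76 were positive (median 0.25) and 1 passed, as lower. This was ATP13A3-DT, which starts beside the gene of a polyamine transporter. It was at 0.156, 0.206 and 0.611 CPM in ERG libraries, against 2.46, 3.96 and 2.05 CPM in vector libraries (log2 -3.07, SE 0.57, edgeR adjusted p = 0.0423). These levels rest on 2, 3 and 9 counts with ERG, against 28, 52 and 21 with vector. ATP13A3-DT reached 1 CPM in the vector libraries alone, so a lower level with ERG was required for it to be tested. The call was lost in some fits without 1 library (edgeR adjusted p = 0.0273 to 0.220 over these fits), in which 0 to 441 of all tested genes were called.

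Promoter windows in RefSeq (GRCh38.p14, 250 bases before to 50 after the start) were found for 275 of the 380 genes and searched on both strands for the letters AGATAA, bound by GATA factors, and CCGGAAG and AGGAAG, bound by ETS factors. These ETS strings cannot overlap at the same GGAAG, since the base before it differs. AGATAA was present in 9.46% of the windows (10.5% of all 27305 promoters in the tables), CCGGAAG in 13.5% (10.7%) and AGGAAG in 34.2% (33.7%). The shares were thus close to those of all promoters for AGATAA and AGGAAG. Windows are printed for STXBP5-AS1 and its partner, which start side by side and had fitted changes whose intervals did not overlap, for LINC00539, which holds both ETS strings, and for HECW2-AS1, which holds AGATAA more than once. Each runs 5′ to 3′ on the gene's strand, and capitals mark a match on either strand. A match is a description of letters and not a bound site.
STXBP5-AS1, chr6:147204565-147204864, minus strand: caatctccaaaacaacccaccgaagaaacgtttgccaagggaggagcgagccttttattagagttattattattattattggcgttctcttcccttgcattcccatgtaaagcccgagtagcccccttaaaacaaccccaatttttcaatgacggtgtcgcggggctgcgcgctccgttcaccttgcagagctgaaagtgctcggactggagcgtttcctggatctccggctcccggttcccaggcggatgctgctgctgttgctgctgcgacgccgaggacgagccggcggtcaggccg
STXBP5, chr6:147204167-147204466, plus strand: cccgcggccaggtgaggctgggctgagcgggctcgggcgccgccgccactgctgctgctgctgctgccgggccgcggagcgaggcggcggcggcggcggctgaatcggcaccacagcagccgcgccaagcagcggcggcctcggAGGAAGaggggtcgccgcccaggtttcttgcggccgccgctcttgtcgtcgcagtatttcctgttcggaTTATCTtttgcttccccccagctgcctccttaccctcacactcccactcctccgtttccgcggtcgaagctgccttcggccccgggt
LINC00539, chr13:21344810-21345109, minus strand: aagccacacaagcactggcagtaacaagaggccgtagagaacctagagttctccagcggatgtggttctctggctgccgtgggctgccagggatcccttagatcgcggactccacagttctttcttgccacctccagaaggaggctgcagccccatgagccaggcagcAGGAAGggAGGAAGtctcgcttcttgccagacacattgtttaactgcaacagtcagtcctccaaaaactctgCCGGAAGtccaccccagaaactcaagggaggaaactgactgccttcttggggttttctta
HECW2-AS1, chr2:196259774-196260073, plus strand: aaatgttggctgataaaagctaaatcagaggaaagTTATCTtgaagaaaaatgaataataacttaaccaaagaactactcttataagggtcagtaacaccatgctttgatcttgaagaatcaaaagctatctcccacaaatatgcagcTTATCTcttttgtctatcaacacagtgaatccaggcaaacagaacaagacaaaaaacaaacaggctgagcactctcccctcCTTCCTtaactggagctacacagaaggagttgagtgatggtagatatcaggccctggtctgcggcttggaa
The STXBP5-AS1 window held none of the 3 strings, and that of STXBP5 held AGATAA and AGGAAG once each. The LINC00539 window held CCGGAAG once and AGGAAG 2 times. That of HECW2-AS1 held AGATAA 2 times, on the opposite strand, and AGGAAG once. HECW2-AS1, shown for its sequence, was at 23.7, 22.5 and 7.60 CPM in ERG libraries, against 11.97, 4.26 and 3.13 CPM in vector libraries. Its groups overlapped (log2 1.47, SE 0.59, edgeR adjusted p = 0.285), while the set term gave a log2 fold change of 0.98 (adjusted p = 0.00616).

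At the level required for entry the values were small. The genes just inside it, by their third-highest CPM, were EIF1B-AS1 and PRKAR2B-AS1 (each 1.01) and LINC01341 (1.04), and those just outside were PGM5P4-AS1 and LINC02775 (each 0.988) and CORO1A-AS1 (0.966). LINC01341 had 17, 17 and 5 counts in ERG libraries, against 12, 1 and 1 in vector libraries, so that its place in the list rested on ERG replicates 1 and 2 and vector replicate 1. The 53 rows below the level were not tested in the main fit. With no filter on level 34 of them had positive log2 fold changes and 0 passed (lowest edgeR adjusted p = 0.113). At an unadjusted p under 0.05, 13 of the 53 passed, and 2390 of all 14821 genes did. Every row had a second-highest CPM of at least 1.01, so these 53 missed the level by their third-highest CPM alone. This selection bears on their signs and p-values, which are given as a description.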

How the data were processed

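RNA of 6 libraries (3 ERG, 3 vector) was measured by sequencing of polyadenylated RNA. The table deposited by the authors holds whole-number read counts per gene, although its name speaks of CPM. The submitters' processing notes name hg38 and edgeR 3.32.1; the aligner, counter, annotation and strand setting are not given in the sources used here. Column headings matched sample titles by number, and columns not named ERG were taken as vector, since the study has no other group (0 columns unused). Every gene in the table had a second-highest CPM of at least 1.01, so rows of lower genes had been left out before deposit.

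All genes with at least 1 CPM (count over column total) in at least 3 of 6 libraries were fitted with edgeR 4.0.16 in R 4.3.3, with TMM normalisation, the quasi-likelihood test (two-sided) and Benjamini-Hochberg adjustment over 14203 genes, threshold 0.05. The 618 other rows were left out. The SE is the size of the log2 fold change over the square root of F. CPM in the text is TMM-normalised, except the marker sums. Differences within library sets use log2 CPM (prior count 2). The fit was tested on simulated data with known changes.

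Alternatives were DESeq2 1.42.0, limma 3.58.1 voom, RLE normalisation, no filter, a 5 CPM filter, a replicate block, a library set term, ERG replicates 1 and 2 summed, both of these together (added after the data were seen) and leaving out each library. Neighbours of LINC genes and other long noncoding genes were put through the same alternatives. The genes, lists and library sets were chosen with earlier results of these data known. The named genes are ERG, genes called, the 6 LINC and 6 -AS1 genes of highest level, -AS1 genes whose partner is called, genes at the edge of the level, and pairs of neighbours both called; others are said to be named after their values were seen. Positions are RefSeq GRCh38.p14, matched by symbol (371 of 380), and exon lengths GENCODE release 29. Depths of 10257141 to 14803031 counts mean that 1 CPM rests on about 10 to 15 counts.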

Additional observations from a re-analysis of the deposited data

How the results depend on the processing

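The count of LINC and -AS1 genes called was 1 with RLE normalisation, limma-voom, no filter and the 5 CPM filter, as in the main fit. In the order LINC and -AS1 genes together, LINC, -AS1, partners, LINC neighbours, other long noncoding genes and all genes, DESeq2 called 12, 7, 5, 18, 12, 3 and 1006. The library set term gave 24, 14, 10, 42, 27, 6 and 1869, and with ERG replicates 1 and 2 summed as well (added after the data were seen) 9, 5, 4, 24, 12, 3 and 1001. With only that sum, 0 were called in each. The 5 CPM filter left 0 calls among other long noncoding genes. Without 1 library the counts ran from 0 to 4, 0 to 2, 0 to 2, 0 to 6, 0 to 5, 0 to 1 and 0 to 441. The labels do not say whether replicate numbers pair the samples. Deviations of same-numbered samples correlated at 0.628, -0.285 and 0.589, which does not settle it. The replicate block gave 13, 6, 7, 16, 12, 3 and 905 calls. DESeq2, the block and the set term shared 10 genes of 25 called by any of them.

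Of 925 fold changes of 63 named genes, 28 changed sign, in 7 genes, none of them called in the main fit. AFAP1-AS1 was at -0.01002 with RLE, -0.01024 with DESeq2, -0.001596 with voom and -0.009693 with the block. LINC00839 was at 0.01899 with voom, 0.02112 with the 5 CPM filter, 0.009881 with the block, 0.09643 with the set term, 0.01348 with the sum and 0.07816 with both. LINC01128 was at 0.01307 with the filter, 0.03739 with the set term, 0.008068 with the sum and 0.03499 with both, and SLC25A21-AS1 at 0.0326 with voom. Without 1 library, the log2 fold change ran from -0.06866 to 0.0761 for LINC01128, from -0.1377 to 0.1694 for LINC00839, from -0.2658 to 0.1743 for AFAP1-AS1, from -0.6612 to 0.5225 for SLC25A21-AS1, from -1.205 to 0.1802 for LINC01133, from -1.169 to 0.2069 for LINC02573 and from -0.08447 to 1.168 for TSPOAP1, partner of TSPOAP1-AS1. The cause was not tested.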
